A study of Mus musculus with 2 samples.

Results

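The CDK inhibitor family comprised 7 genes, Cdkn1a, Cdkn1b, Cdkn1c, Cdkn2a, Cdkn2b, Cdkn2c and Cdkn2d, out of 32285 genes counted. The members were chosen by name, and all 7 had at least 1 UMI (unique molecular identifier, a tag that counts each captured mRNA molecule once). They were followed in lineage-depleted, CD45- cells of bone and marrow (femur and tibia) from 3 male INK-ATTAC mice aged 24 months that were pooled into 1 sample. INK-ATTAC mice carry a transgene in which a fragment of the Cdkn2a (p16Ink4a) promoter drives a caspase that a drug can switch on, and no drug was given here. Red cells were lysed, lineage-positive cells were removed on magnetic beads, with the erythroid antigen Ter-119 among the targets, and live CD45- cells were sorted by FACS. The deposit labels its 2 libraries as replicates 1 and 2, but their cell barcodes were nearly all shared, so they were treated as 2 runs of the same cells, called lanes here. The same molecule may be counted in both lanes, and UMI counts of cells are summed over the lanes unless the mean is named. The study's legends differ on this, one describing pooled mice and another independent animals. There was thus taken to be 1 biological sample, no comparison of ages or treatments, no p-value and no standard error. All intervals below are exact 95% intervals and cover counting error only. Levels (Poisson) and ratios (binomial) used the mean of the lanes, and shares (binomial) used counts of cells with a UMI in the summed lanes.

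CDK inhibitors are small proteins that hold cyclin-dependent kinases (CDKs) in check and so slow or stop the cell cycle. The Cip/Kip members p21 (Cdkn1a), p27 (Cdkn1b) and p57 (Cdkn1c) bind cyclin-CDK complexes broadly, and p21 is the classical p53 target, p27 is set largely by protein turnover and p57 is imprinted. The INK4 members p16 (Cdkn2a), p15 (Cdkn2b), p18 (Cdkn2c) and p19 (Cdkn2d) bind CDK4 and CDK6 and keep them from D-type cyclins, and Cdkn2a also encodes p19Arf from another first exon. In bone and marrow p16 and p21 are the usual markers of cellular senescence, while p27, p18 and p19 are known for their part in the last divisions of maturing blood cells.

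Of 11056 barcodes, 10928 were found in both lanes and 9573 were kept (at least 200 genes and at most 20% mitochondrial UMIs), with 116827845 UMIs in lane 1 and 120556381 in lane 2 over all barcodes. The LEPR stromal cells, taken by a Lepr UMI and at least 5000 CPM of Cxcl12 (CPM, UMIs scaled to a fixed library total), numbered 1877 with a median of 5188 UMIs summed over the lanes. Marker lists gave 103 fibroblast-like cells (median 8499 UMIs), 47 endothelial-like cells (2814), 104 megakaryocyte-like cells (8070.5), 49 plasma cell-like cells (27047) and 6887 erythroid cells (24950), and 506 cells stayed unclassified. Every list was detected in full in its own class (12 of 12, 14 of 14, 12 of 12, 12 of 12 and 6 of 6 markers for the stromal, fibroblast, endothelial, megakaryocyte and plasma cell lists). Apart from the stromal gate, the lists also defined the classes. Detection alone does not set classes apart, since the stromal list was also detected in full in megakaryocyte-like and plasma cell-like cells. The osteoblast list summed to 3045 CPM in LEPR stromal and 2649 CPM in fibroblast-like cells. Immune markers that the CD45 gate should remove summed to between 1.01 and 10.5 CPM in stromal, fibroblast-like, endothelial-like and erythroid cells and to 353 CPM in megakaryocyte-like cells. The erythroid cells were divided by the globin share of their UMIs into 1968 cells under 0.5%, 822 at 0.5 to 1%, 1705 at 1 to 2.5%, 1574 at 2.5 to 6%, and 818 at 6% or more. Of the last, 571 had at least 5000 UMIs (median 34578). The other 247 met the erythroid list and are counted in the 6887, but had a median of 1640 UMIs, far below the 9857 of all kept cells, and none of the list among their 10 leading genes by fold. For these reasons together they were given no cell type name and are called low-RNA globin-rich cells. The 3 stages with the lowest globin share also had none of the list among their leading genes, at medians of 10130.5 to 40896 UMIs.

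The genes lie on 5 chromosomes in GENCODE M21 (GRCm38). Cdkn1a (ENSMUSG00000023067) spans 29090976 to 29100727 on chromosome 17 (plus strand), Cdkn1b (ENSMUSG00000003031) spans 134920401 to 134925513 on chromosome 6 (plus), and Cdkn1c (ENSMUSG00000037664) spans 143458339 to 143461050 on chromosome 7 (minus). Cdkn2a (ENSMUSG00000044303, 89274471 to 89294653), Cdkn2b (ENSMUSG00000073802, 89306299 to 89311039) and Cdkn2c (ENSMUSG00000028551, 109660876 to 109667189) all lie on the minus strand of chromosome 4, with 11645 bases between Cdkn2a and Cdkn2b. Cdkn2d (ENSMUSG00000096472) spans 21288410 to 21291407 on chromosome 9 (minus). An antisense gene, Gm44732, overlaps Cdkn1c and had 2 UMIs.

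Promoter sequence is shown for the members whose levels differed most between cell classes, from RefSeq (GRCm38.p6), in the sense of the gene and restricted to bases in no annotated exon. The 250 bases before each start were searched on both strands for GGGCGG (GC box, in 32.7% of 32851 mouse promoter windows), CCAAT (33.8%), TATAAA (12.4%), AGATAA (a motif of erythroid factors, 9.99%), TTTNNCGC (an E2F motif, 4.28%) and CATGNNNNNNCATG (the paired core of a p53 site, 0.490%), and matches are in capitals. Cdkn1c had no entry. The upstream start of Cdkn1a held the paired p53 core and its second start held 2 GC boxes. The Cdkn1b window held 2 CCAAT boxes and 1 GC box, the Cdkn2d window held 3 GC boxes and 1 CCAAT box in reverse (ATTGG), of which only the last falls in the short stretch shown, and the Cdkn2c window shown in part held none of the 6 motifs. A second Cdkn2c start, whose window lies in annotated exon and is not shown, held 3 GC boxes. A match describes letters in these windows and was not tested for binding.
Cdkn1a upstream start (chr17:29090729-29090975, plus strand): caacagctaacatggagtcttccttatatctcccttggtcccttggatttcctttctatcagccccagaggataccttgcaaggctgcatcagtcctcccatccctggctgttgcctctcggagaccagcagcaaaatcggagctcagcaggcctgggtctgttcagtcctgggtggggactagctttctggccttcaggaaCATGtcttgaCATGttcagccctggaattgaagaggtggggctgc
Cdkn1a second start (chr17:29093519-29093768, plus strand): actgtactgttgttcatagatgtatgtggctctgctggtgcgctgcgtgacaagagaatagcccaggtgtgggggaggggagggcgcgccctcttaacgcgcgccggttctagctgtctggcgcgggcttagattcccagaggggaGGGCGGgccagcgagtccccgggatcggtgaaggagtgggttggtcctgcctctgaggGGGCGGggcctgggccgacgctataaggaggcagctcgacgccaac
Cdkn1b (chr6:134920151-134920400, plus strand): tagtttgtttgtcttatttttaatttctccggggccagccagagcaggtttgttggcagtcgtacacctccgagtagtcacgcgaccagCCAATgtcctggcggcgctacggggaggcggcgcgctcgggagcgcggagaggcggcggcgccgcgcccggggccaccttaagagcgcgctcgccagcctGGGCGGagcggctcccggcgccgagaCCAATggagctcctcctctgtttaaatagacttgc
Cdkn2c (chr4:109665373-109665609, minus strand): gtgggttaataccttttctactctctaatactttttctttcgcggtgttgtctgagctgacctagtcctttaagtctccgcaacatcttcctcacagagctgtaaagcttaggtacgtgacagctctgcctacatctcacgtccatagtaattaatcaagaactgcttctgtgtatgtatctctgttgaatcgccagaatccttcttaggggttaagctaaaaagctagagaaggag
Cdkn2d (chr9:21291408-21291459, minus strand): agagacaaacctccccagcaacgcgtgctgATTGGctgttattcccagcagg

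The 5 abundant members were highest in 4 classes. Cdkn1a and Cdkn1c were highest in fibroblast-like cells, Cdkn1b in the low-RNA globin-rich cells, Cdkn2c in globin-rich erythroid cells and Cdkn2d in megakaryocyte-like cells. Cdkn2a and Cdkn2b were rare, with at most 7.04 CPM in any class. CPM from these 3' tags is compared below between classes for 1 gene, not between genes.

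**Figure D1:**
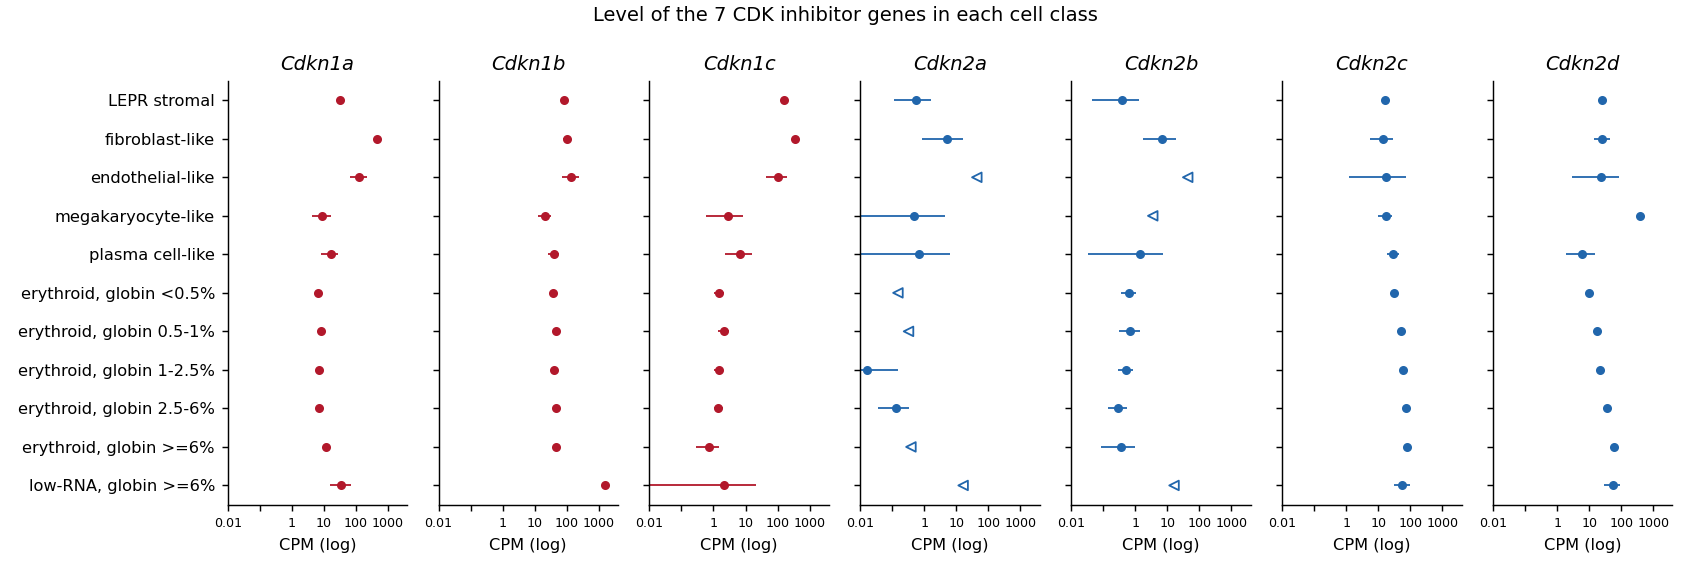
CPM on a log axis of each of the 7 members in 11 cell classes and stages, 1 panel a gene, Cip/Kip in red and INK4 in blue, with bars for the 95% counting interval; open triangles mark the upper limit where no UMI was found. Cdkn1a and Cdkn1c peak in fibroblast-like cells (448 and 346 CPM), Cdkn1b in low-RNA globin-rich cells (1579 CPM) and Cdkn2d in megakaryocyte-like cells (382 CPM).

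Cdkn1a encodes p21, which binds CDK2 complexes and the replication clamp PCNA. It stood at 448 CPM in fibroblast-like cells (391 to 511; 433 and 464 CPM in the lanes), at 129 CPM in endothelial-like cells (64.6 to 232), at 35.1 CPM in low-RNA globin-rich cells (15.2 to 69.2) and at 31.6 CPM in LEPR stromal cells (27.1 to 36.8). Plasma cell-like cells had 16.3 CPM, megakaryocyte-like cells 9.05 CPM, and the 5 erythroid stages between 6.48 and 11.5 CPM. The order of the first 2 steps was beyond counting error (3.46-fold from fibroblast-like to endothelial-like cells and 3.68-fold from there to the low-RNA cells), low-RNA and LEPR stromal cells did not separate (log2 ratio 0.15, −1.08 to 1.16), and LEPR stromal cells lay 1.94-fold above plasma cell-like cells. Below these, no pair of neighbours separated.

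The p21 transcript was held by few cells. Among the 103 fibroblast-like cells, 47 (45.6%) had a UMI, 5 cells held 50% of all 446 UMIs, and the top cell had 88. The 10 cells with the most Cdkn1a (10 to 88 UMIs each) held 311 of the 446, and without them the ratio of fibroblast-like to LEPR stromal cells was 2.40 on the log2 scale in place of 3.83. The other 93 cells stood at 167 CPM, within the endothelial-like interval. Leaving out the cells with the most lowers any level, and the endothelial-like cells, of which 3 of 47 held 50% of 22 UMIs, were not trimmed alike. Those 10 cells, chosen on Cdkn1a and described by genes named after their values were seen, carried cartilage genes: Sox9, a chondrocyte transcription factor, stood at 988 CPM against 40.8 CPM in the other 93 cells (8 of 10 cells with a UMI), Acan, which encodes aggrecan, at 714 against 23.5 CPM (7 of 10), and Prg4, which encodes lubricin, at 21438 against 1910 CPM (9 of 10). Cdkn1c went the other way, at 85.9 CPM in those 10 cells and 406 CPM in the rest. Of 3 p53 targets looked at there, Phlda3 stood at 21.5 against 87.8 CPM, with an interval of the ratio below 0, while Mdm2 (26.9 against 33.4 CPM) and Ccng1 (no UMI against 43.3 CPM) did not separate. The 10 cells were deeper (median 13626.5 against 8326 UMIs), and the part of depth and cell type in these values was not tested.

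In LEPR stromal cells 160 of 1877 cells (8.52%, 7.30 to 9.88) had a Cdkn1a UMI, with at most 18 UMIs in a cell, and 36 cells held 50% of the UMIs. With each cell thinned to 2000 UMIs the share was 4.28% in LEPR stromal cells, 27% in fibroblast-like cells, 17.1% in endothelial-like cells and 1.25% in erythroid cells. The stromal cells with Cdkn1a had more Btg2, an antiproliferative p53 target (572 against 203 CPM, 2.82-fold), Plk2 (26.7 against 9.56 CPM), Klf4 (109 against 41.1 CPM) and Klf2 (196 against 88.2 CPM), and less Igf2, an imprinted growth factor (25.0 against 64.6 CPM). Btg2 and Plk2 were 2 of 14 p53-list genes with enough UMIs that were at least 2-fold higher, where 1.12% of 9471 genes were, and none was at least 2-fold lower, where 1.38% were. Mdm2 (33.9 against 33.9 CPM), Ccng1 (25.9 against 27.4 CPM), Mdm4 (90.9 against 89.1 CPM) and Gadd45a (46.4 against 42.8 CPM) did not separate, while Phlda3 was higher by less than 2-fold (137 against 74.5 CPM; 0.88, 0.51 to 1.24).

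**Figure D2:**
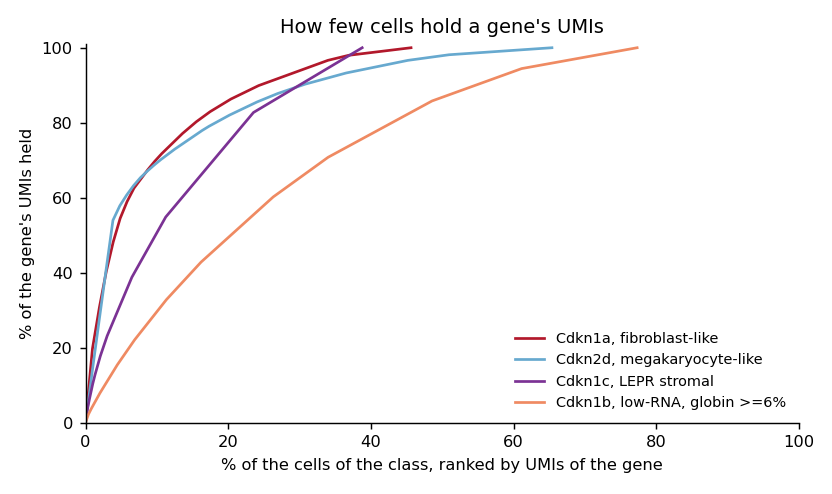
Share of a gene's UMIs (y axis, %) held by the cells with the most of it, against the share of the class's cells (x axis, %), for 4 gene and class pairs. The curves for Cdkn1a in fibroblast-like cells and Cdkn2d in megakaryocyte-like cells rise steeply, with 50% of UMIs in 5 and 4 cells, while Cdkn1b in low-RNA globin-rich cells is spread over most cells.

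Cdkn1a was also unevenly spread in erythroid cells, where the level was low (7.60 CPM, 7.09 to 8.14; 472 of 6887 cells). A set of 28 cells with at least 10 UMIs, a limit set after the values were seen, held 544 of the 1629 erythroid Cdkn1a UMIs (33.4%), with up to 64 in 1 cell. These 28 cells lay in all 5 erythroid stages and none among the low-RNA cells (4, 3, 6, 8 and 7 cells from the lowest to the highest globin share). Against the 6415 erythroid cells with no Cdkn1a UMI, 8 of the 15 p53-list genes with enough UMIs were at least 2-fold higher and 0 lower, where 6.16% of 10767 genes were at least 2-fold higher and 1.19% lower. Phlda3, an inhibitor of AKT signalling, stood at 52.0 against 2.29 CPM (log2 ratio 4.51, 4.02 to 4.97; 19 of 28 cells with a UMI). Zmat3, an RNA-binding p53 target, stood at 35.4 against 2.90 CPM (3.61, 3.03 to 4.14; 17 cells), and Ccng1, which encodes cyclin G1, at 108 against 28.4 CPM (1.93, 1.62 to 2.22; 26 cells). Eda2r, Trp53inp1, Bbc3 (which encodes the BH3 protein PUMA), Aen and Sesn2 made up the 8, with log2 ratios of 1.52 to 3.92. Trp53 itself was at 190 against 160 CPM and its antagonist Mdm2 at 37.0 against 27.8 CPM (0.42, −0.12 to 0.91).

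The cells rich in p21 transcript were not without Mki67, the proliferation antigen, which had a UMI in 28 of 28 cells and a level of 1094 against 1225 CPM. Erythroid transcription factors were level (Klf1 278 against 280 CPM, Gata1 113 against 103 CPM). Immediate-early genes were higher as well (Fos 78.5 against 8.65 CPM, Egr1 58.6 against 7.24 CPM), as was the bone matrix gene Ibsp (67.5 against 12.3 CPM). Among the other members with enough UMIs, Cdkn1c was higher (log2 ratio 2.49, 1.15 to 3.58, from 4 cells), Cdkn1b was lower (−0.66, −1.27 to −0.11), and Cdkn2c and Cdkn2d were not separated from 0 (−0.41, −0.90 to 0.04, and −0.05, −0.71 to 0.54). The 28 cells were deeper (median 55504.5 against 21446 UMIs), and against only those 3353 cells without Cdkn1a that had at least as many UMIs as the shallowest of the 28 (17894), 7 of 14 p53-list genes were at least 2-fold higher and none lower, where 5.97% of 10534 genes were higher and 0.921% lower (median 48963 UMIs in the comparison cells). The part of Ibsp-bearing RNA or of the immediate-early response in these values was not tested, and 1 of the 28 cells was called a doublet.

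Cdkn1b encodes p27, which holds cells at the exit from G1. Its level was 1579 CPM in the low-RNA globin-rich cells (1420 to 1751; 1586 and 1573 CPM in the lanes), 141 CPM in endothelial-like cells (73.0 to 247), 105 CPM in fibroblast-like cells (78.1 to 137) and 82.2 CPM in LEPR stromal cells (74.7 to 90.3). The first step was 11.2-fold and the next 3 classes did not separate from their neighbours. The 5 erythroid stages lay between 37.4 and 45.4 CPM, plasma cell-like cells at 40.2 CPM and megakaryocyte-like cells lowest, at 20.96 CPM (13.1 to 31.7). LEPR stromal cells lay 1.81-fold above the nearest erythroid stage.

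Within globin-rich cells, p27 transcript set the low-RNA cells apart in molecules per cell and not only in CPM. The 247 low-RNA cells carried 1.46 Cdkn1b UMIs per cell on the mean of the lanes, the 571 deeper cells 0.771, although the latter held a median of 34578 UMIs against 1640. A UMI was found in 191 of 247 low-RNA cells (77.3%) and in 349 of 571 deeper ones (61.1%), and 84 low-RNA cells had 4 or more UMIs against 75 deeper ones. Of the low-RNA cells, 68 reached the 2000 UMIs needed for thinning, and 67.6% of those (55.2 to 78.5) had a Cdkn1b UMI against 9.63% (7.34 to 12.4) of the thinned deeper cells. The level increased as the UMI total decreased, from 165 CPM (113 to 233) in the 54 globin-rich cells with 5000 to 10000 UMIs to 793 CPM (587 to 1048) at 2500 to 5000 UMIs and 1872 CPM (1670 to 2092) below 2500 UMIs. The limit of 5000 UMIs was set after the data were seen.

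**Figure D3:**
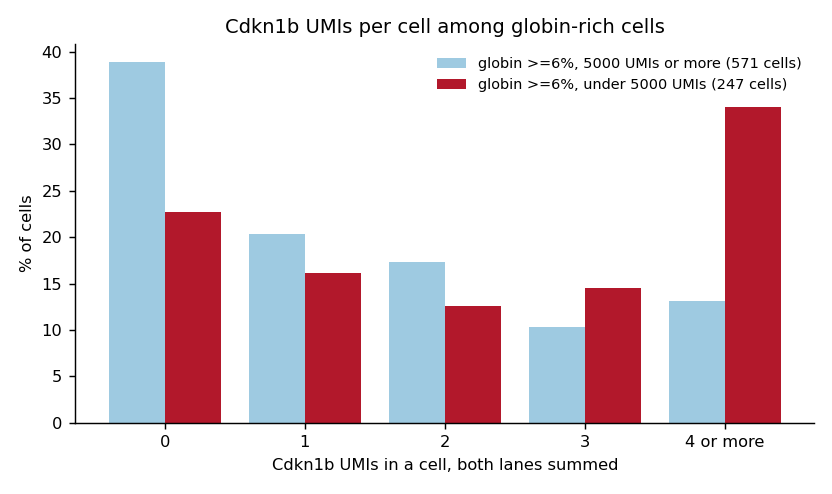
Percent of cells (y axis) with 0, 1, 2, 3 or at least 4 Cdkn1b UMIs summed over both lanes (x axis), among cells with a globin share of 6% or more, by total UMIs. Cells under 5000 UMIs (red, 247 cells) have 4 or more UMIs in 84 cells, and cells with 5000 or more (blue, 571 cells) in 75.

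Between the low-RNA and the deeper globin-rich cells, Cdkn1b differed by 5.12 on the log2 scale (4.91 to 5.32), which is 34.8-fold, and Cdkn1a by 1.61 (0.37 to 2.64). The Cdkn1a value rests on 5 of 247 low-RNA cells with a UMI, of which 2 had 4 or more. Cdkn1b and Cdkn1a were 2 of 4 members with enough UMIs, where 12.3% of 6988 genes were at least 2-fold higher. No member was at least 2-fold lower, where 31.4% of genes were, and Cdkn2c (57.1 against 78.5 CPM; −0.46, −1.37 to 0.32) and Cdkn2d (54.9 against 60.5 CPM; −0.14, −1.08 to 0.66) were not separated from 0. The median of all genes was −1.08. Of the 9 FOXO and Kruppel-like regulators, 5 had enough UMIs and 4 were at least 2-fold higher, among them the p27 activator Foxo3 (356 against 54.2 CPM) and Mxd1, an antagonist of Myc (1338 against 45.4 CPM). Of 12 p53-list genes, 7 were higher and Bax lower, with Btg2 at 1597 against 210 CPM, the growth arrest gene Gadd45a at 1373 against 73.6 CPM and Sesn1 at 290 against 20.6 CPM. Of 10 kinase and cyclin genes, 8 were lower and none higher, with Cdk4, the target of INK4 proteins, at 26.4 against 133 CPM and Ccnd3, the D-type cyclin of erythroid cells, at 85.7 against 626 CPM. Of 7 genes of p27 turnover, the ubiquitin ligase scaffold Cul4a was higher (325 against 64.5 CPM) and Cks1b, Cul1 and Ubac1 were lower. Xpo7, an exportin of late red cell precursors and a gene that led these cells, stood at 6896 against 13.8 CPM. The part of free RNA in cells this shallow was not tested.

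Cdkn1c encodes p57, the imprinted member. It stood at 346 CPM in fibroblast-like cells (296 to 402), 154 CPM in LEPR stromal cells (144 to 165; 147 and 161 CPM in the lanes) and 100 CPM in endothelial-like cells (44.5 to 193). All other classes were far lower, with 6.81 CPM in plasma cell-like cells, 2.86 CPM in megakaryocyte-like cells and 1.47 CPM in erythroid cells (1.25 to 1.72). Fibroblast-like cells lay 2.24-fold above LEPR stromal cells, LEPR stromal and endothelial-like cells did not separate (0.62, −0.33 to 1.80), and the drop to plasma cell-like cells was 14.7-fold. A UMI was found in 728 of 1877 LEPR stromal cells (38.8%) at a median depth of 5188 UMIs and in 189 of 6887 erythroid cells (2.74%) at 24950 UMIs. With cells thinned to 2000 UMIs the shares were 22.6% and 0.382%. In the stroma 184 cells held 50% of the 1657 Cdkn1c UMIs.

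LEPR stromal and erythroid cells differed by 6.71 on the log2 scale for Cdkn1c (6.47 to 6.97; 105-fold) and by 2.06 for Cdkn1a (1.81 to 2.30). These were 2 of 6 members with enough UMIs at least 2-fold higher, where 44.6% of 12480 genes were, and Cdkn2c was the 1 member at least 2-fold lower (16.5 against 57.7 CPM; −1.81, −2.13 to −1.51), where 18.4% of genes were. Cdkn1b lay at 82.2 against 45.3 CPM (0.86, 0.72 to 1.00), but its direction turned when every cell counted equally (−0.63 when CPM was averaged over cells). Cdkn2d did not separate (25.2 against 26.8 CPM; −0.09, −0.35 to 0.16), nor did Cdkn2b (−0.40, −3.48 to 1.53). Of the imprinted genes listed with Cdkn1c, 6 of 8 were higher in the stroma, among them Igf2 (60.5 against 0.159 CPM), Grb10 (78.6 against 2.61 CPM) and the zinc finger gene Plagl1 (61.4 against 0.266 CPM), while Phlda2, a neighbour of Cdkn1c, had no UMI in the stroma against 2.91 CPM. Of 10 regulators of the INK4 locus, 8 were higher, including the Polycomb genes Bmi1 (35.8 against 10.6 CPM) and Cbx7 (27.9 against 2.30 CPM), and the methyltransferase gene Ezh2 was lower (54.2 against 264 CPM). Of 11 kinase and cyclin genes, 8 were lower in the stroma and Ccnd1 and Ccnd2 higher, and all 9 remaining genes of the pocket protein and E2F list were lower beside higher Rbl2 and E2f5. The median of all genes was 0.72. The comparisons of classes share cells, since LEPR stromal cells enter this one and the one with fibroblast-like cells, and erythroid cells this one and the one with megakaryocyte-like cells.

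At the edge of the stromal gate, the 166 cells with 5000 to 10000 CPM of Cxcl12 had 39.8 CPM of Cdkn1a, 88.7 of Cdkn1b and 133 of Cdkn1c, and the 90 cells just outside, with a Lepr UMI and 2500 to 5000 CPM, had 8.99, 52.3 and 48.3 CPM. Cdkn2c went the other way, at 17.1 CPM inside and 62.4 CPM outside. Erythroid RNA in stromal barcodes was measured by the erythroid marker list, which stood at 7.84% of its erythroid level in LEPR stromal cells (single markers 5.69 to 17.0%). At that share of the erythroid level Cdkn2c would stand at 4.52 CPM and Cdkn2d at 2.10 CPM, against 16.5 and 25.2 CPM measured. At the share of the highest single marker they would stand at 9.81 and 4.55 CPM.

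Fibroblast-like over LEPR stromal cells, the 2 mesenchymal classes, gave a log2 ratio of 3.83 for Cdkn1a (3.53 to 4.12) and 1.17 for Cdkn1c (0.92 to 1.41), 2 of 5 members with enough UMIs, where 6.59% of 9764 genes were at least 2-fold higher. No member was at least 2-fold lower, where 18.9% were. Cdkn1b (0.35, −0.10 to 0.76), Cdkn2c (−0.23, −1.58 to 0.88) and Cdkn2d (0.05, −0.89 to 0.87) did not separate. Of 9 FOXO and Kruppel-like regulators 5 were higher and none lower, with the p21 activator Klf4 at 888 against 48.2 CPM and Klf2 at 472 against 99.4 CPM. Of 15 p53-list genes 1, Plk2, was higher (35.2 against 11.3 CPM) and none was lower. Of 7 imprinted genes Meg3 (97.5 against 12.4 CPM), Peg3 and Ndn were higher and Plagl1 lower. The median of all genes was −0.30.

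Among LEPR stromal cells each pair of the Cip/Kip members met in more cells than independence gives, with and without thinning. After thinning the excess was largest for Cdkn1a and Cdkn1c, and no test was run. Cdkn1a and Cdkn1c were found together in 84 cells, where 62.1 would be found if they were independent, and in 29 against 17.0 cells after thinning, as a description of cells of 1 sample. Cdkn1a and Cdkn1b met in 63 against 43.4 cells, which after thinning was 11 against 10.0. For Cdkn1b and Cdkn1c the counts were 224 against 197, and 55 against 52.9 after thinning. In fibroblast-like cells Cdkn1a and Cdkn1c met in 24 cells against 29.7, and in 4 against 9.72 after thinning. Over all kept cells 41.2% had UMIs of at least 2 members, and 3.44% after thinning to 2000 UMIs.

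Cdkn2a encodes p16, the gene by which the mice were designed, and p19Arf, and the counts here do not tell the 2 transcripts apart. It had UMIs in 18 of 9573 cells, at most 2 a cell, and 4 of the 18 cells had a UMI in both lanes. LEPR stromal cells made up 5 of them, fibroblast-like cells 4, erythroid cells 7, of which 6 had a globin share of 2.5 to 6%, and the megakaryocyte-like and plasma cell-like classes 1 each. The level was 5.03 CPM in fibroblast-like cells (0.836 to 16.1), 0.558 CPM in LEPR stromal cells (0.115 to 1.63) and 0.0420 CPM in erythroid cells (0.0126 to 0.102). These levels rest on 5, 6 and 9 UMIs summed over the lanes, so no fold is given, and no neighbours in the order of levels separated. Mki67 was found with Cdkn2a in 9 of the 18 cells, Cdkn1a in 5, and Bcl2 without Mki67 in 2. The 18 cells had a median of 27447 UMIs, above the 9857 of all kept cells. No endothelial-like cell had a UMI, which allows a share of cells with a UMI of up to 6.38%, and no cell with a globin share under 0.5% had one, which allows up to 0.152%. These limits concern cells with a UMI at this depth (median 2814 UMIs in endothelial-like cells) and not cells that express the gene.

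Cdkn2b encodes p15, the neighbour of p16 and a target of TGF-β signalling. It had 120 UMIs in 71 cells. The level was 7.04 CPM in fibroblast-like cells (1.70 to 19.1; 4 of 103 cells), 0.372 CPM in LEPR stromal cells (0.0451 to 1.34; 2 cells) and 0.490 CPM in erythroid cells (0.366 to 0.642; 63 cells), with no UMI in endothelial-like, megakaryocyte-like or low-RNA globin-rich cells. Fibroblast-like and LEPR stromal cells had 7 and 4 UMIs, so no fold is given. No neighbours in the order of levels separated.

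Cdkn2c encodes p18, the INK4 member with the most UMIs here. It followed the globin share, at 31.0 CPM under 0.5% (28.8 to 33.3), 50.2 CPM at 0.5 to 1% (46.2 to 54.5), 59.8 CPM at 1 to 2.5% (57.1 to 62.6), 73.5 CPM at 2.5 to 6% (70.5 to 76.7) and 78.5 CPM in the deeper cells at 6% or more (73.0 to 84.2). The last step did not separate (0.09, −0.03 to 0.21), and the low-RNA globin-rich cells lay at 57.1 CPM (30.4 to 97.7). Outside the erythroid cells the level was 29.3 CPM in plasma cell-like cells, 17.7 CPM in endothelial-like, 17.2 CPM in megakaryocyte-like, 16.5 CPM in LEPR stromal and 14.1 CPM in fibroblast-like cells. Erythroid RNA at the share of the erythroid list would give Cdkn2c 4.75 CPM in fibroblast-like and 9.94 CPM in endothelial-like cells. At the share of the highest single marker it would give 25.9 and 120 CPM. A UMI was found in 33.2% of the least and 76.0% of the most globin-rich deep cells, and in 5.45% and 11.7% after thinning.

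Cdkn2d encodes p19, the fourth INK4 protein. It increased along the same stages from 9.85 CPM (8.65 to 11.2) through 18.0, 22.5 and 37.3 CPM to 60.5 CPM (55.7 to 65.6), and stood at 54.9 CPM in the low-RNA cells (28.8 to 94.9). The intervals of the 5 stages did not overlap, and after thinning the share of cells with a UMI went from 1.61% to 11.4%. Stromal levels were similar to each other, 25.2 CPM in LEPR stromal (21.2 to 29.8), 26.1 CPM in fibroblast-like (13.9 to 44.7) and 23.5 CPM in endothelial-like cells (2.85 to 85.0).

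Between the deeper cells with 6% globin or more and those under 0.5%, Cdkn2d differed by 2.62 on the log2 scale (2.40 to 2.84) and Cdkn2c by 1.34 (1.19 to 1.49). These were 2 of 4 members with enough UMIs, where 3.82% of 9563 genes were at least 2-fold higher. None was at least 2-fold lower, where 27.9% of genes were. Cdkn1a (11.5 against 6.48 CPM; 0.83, 0.46 to 1.18) and Cdkn1b (45.4 against 37.4 CPM; 0.28, 0.11 to 0.45) were higher by less. With the low-RNA cells included, Cdkn1b joined them at 1.11 (0.97 to 1.25), so 3 of 4 members were at least 2-fold higher against 4.49% of 9581 genes, and none lower against 28.1%. The kinases moved apart, with Cdk6 at 8.40 against 116 CPM and Cdk1 at 346 against 150 CPM, and so did the D-type cyclins, with Ccnd3 at 626 against 136 CPM and Ccnd2 at 14.0 against 44.6 CPM. Of 11 pocket protein and E2F genes, Rb1 (166 against 75.3 CPM), E2f2 and E2f8 were higher and E2f5 and E2f6 lower. Of 14 p53-list genes 2 were higher and 5 lower, with Trp53 at 99.8 against 218 CPM. The median of all genes was −0.50.

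**Figure D4:**
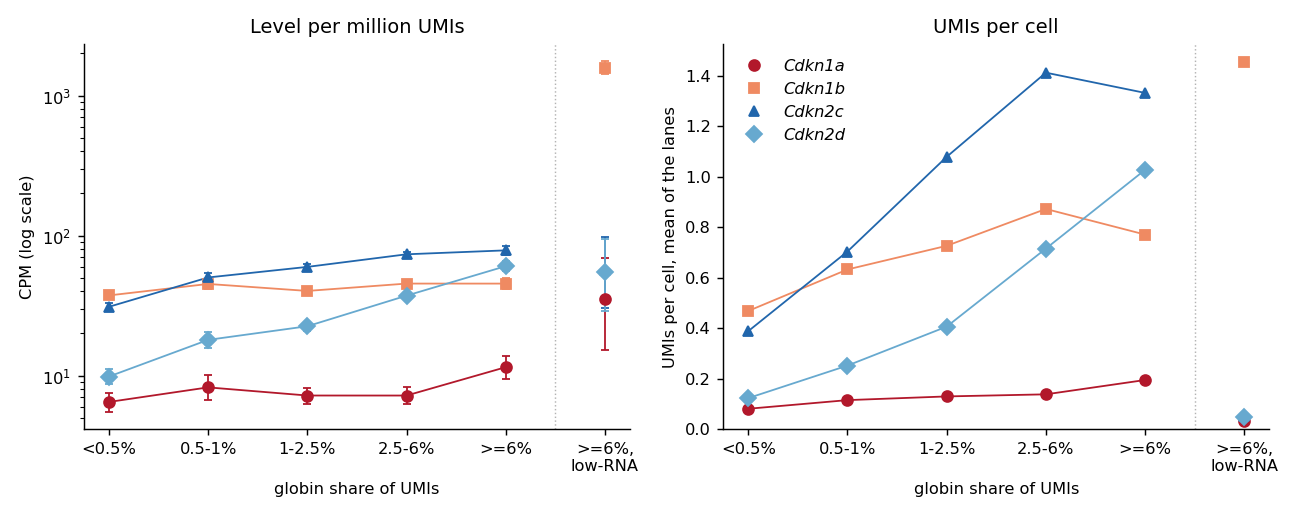
Left, CPM (log axis) with 95% counting intervals, and right, UMIs per cell (mean of the lanes), of 4 members by globin share of UMIs; points right of the dotted line are the low-RNA globin-rich cells. In CPM Cdkn2d increases over the 5 stages and Cdkn2c over the first 4, while Cdkn1b stays between 37.4 and 45.4 CPM and stands at 1579 CPM in the low-RNA cells, with 1.46 UMIs per cell.

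Megakaryocyte-like cells held Cdkn2d at 382 CPM (346 to 421; 397 and 368 CPM in the lanes), 6.31-fold above the next class. A UMI was found in 68 of 104 cells (65.4%), and in 45.3% after thinning. The top cell had 112 UMIs and 4 cells held 50% of the 802. The 10 cells with the most Cdkn2d (13 to 112 UMIs each) held 551 of them, but these were also deep (median 37425 against 6783.5 UMIs), and in CPM the 10 cells stood at 464 CPM against 275 CPM in the other 94. They had more of the mature platelet genes Gp5 (732 against 242 CPM), Vwf (482 against 162 CPM) and Treml1 (1326 against 480 CPM), named after their values were seen, and Mki67 at 174 against 327 CPM.

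Megakaryocyte-like over erythroid cells, Cdkn2d differed by 3.83 on the log2 scale (3.68 to 3.99; 14.3-fold), and by 3.36 without those 10 cells. It was the 1 member at least 2-fold higher of 6 with enough UMIs (Cdkn2b had them in erythroid cells alone), where 23.2% of 11187 genes were. Cdkn1b (−1.11, −1.79 to −0.51) and Cdkn2c (−1.75, −2.51 to −1.09) were at least 2-fold lower, where 15.9% of genes were, and Cdkn1b was at −0.20 without the 10 cells. Cdkn1a did not separate (0.25, −0.85 to 1.16), but stood at 1.38 (0.24 to 2.31) without those cells, and Cdkn1c at 2.16 (−0.13 to 3.74) in place of 0.96, so the members at least 2-fold apart then numbered 4 and were not all the same as the 3 before. The D-type cyclin genes Ccnd2 (226 against 23.2 CPM) and Ccnd1 (26.2 against 2.23 CPM) were higher in megakaryocyte-like cells, and 7 of 11 pocket protein and E2F genes were lower and none higher. Megakaryocyte-like barcodes held the erythroid list at 10.9% of its erythroid level, at which Cdkn2d would stand at 2.93 CPM. Single markers ranged from 3.86 to 117%, and at the highest Cdkn2d would stand at 31.3 CPM, Cdkn1b at 52.9 CPM and Cdkn2c at 67.4 CPM, above the 20.96 and 17.2 CPM measured for the last 2. The immune list, at 353 CPM there, was not tested for its part.

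Mki67 marks cells in the cycle, and 94.0% of erythroid cells had a UMI of it against 21.9% of LEPR stromal, 19.4% of fibroblast-like, 38.5% of megakaryocyte-like and 56.7% of low-RNA globin-rich cells. At 2000 UMIs a cell the shares were 79.6%, 12.7%, 10%, 29.1% and 75% (68 low-RNA cells). In erythroid cells with Mki67, Cdkn2d (27.1 against 7.20 CPM; 1.91, 1.09 to 2.89) and Cdkn2c (58.1 against 28.2 CPM; 1.05, with an interval above 0) were higher and Cdkn1b lower (44.3 against 116 CPM; −1.39, −1.60 to −1.17). Of 6 members with enough UMIs, 4 could be measured in both groups, 2 of them at least 2-fold higher, where 17.6% of 10982 genes were, and 1 lower, where 5.99% were. Cdkn1a did not separate (0.61, −0.38 to 1.83), and Cdkn1c and Cdkn2b had under 1 UMI on the mean of the lanes in the cells without Mki67, so no fold is given.

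The 411 erythroid cells without Mki67 were shallow (median 3460 against 29681.5 UMIs) and included 107 of the low-RNA globin-rich cells. Without the low-RNA cells Cdkn1b turned, to 1.05. When every cell was thinned to 2000 UMIs before Mki67 was read, Cdkn1b stood at 0.58 (0.21 to 0.97), Cdkn2c at 0.40 (−0.02 to 0.85), Cdkn2d at 0.58 (−0.05 to 1.26) and Cdkn1a at 0.67 (−0.49 to 2.07), and no member reached 2-fold. By stage, thinned Cdkn1b was separated from 0 under 0.5% globin alone (75.2 against 23.2 CPM; 1.70, 0.87 to 2.64), and without thinning it was higher with Mki67 there too (38.9 against 7.78 CPM). In that stage 25.5% of 9273 genes were at least 2-fold higher without thinning. Without thinning Cdkn1b was lower with Mki67 at 2.5 to 6% globin (45.2 against 241 CPM; −2.42, −3.35 to −1.29; 21 cells without Mki67, median 1990 UMIs) and in the deeper cells at 6% or more (44.5 against 185 CPM; −2.05, −2.89 to −1.06; 14 cells without). At least 2-fold lower were 10.1% of 8939 genes in the former and 2.29% of 6939 in the latter, where the median of all genes was 1.62. In the low-RNA cells Cdkn1b stood at 1454 CPM with and 1784 CPM without Mki67 (−0.29, −0.60 to 0.02).

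**Figure D5:**
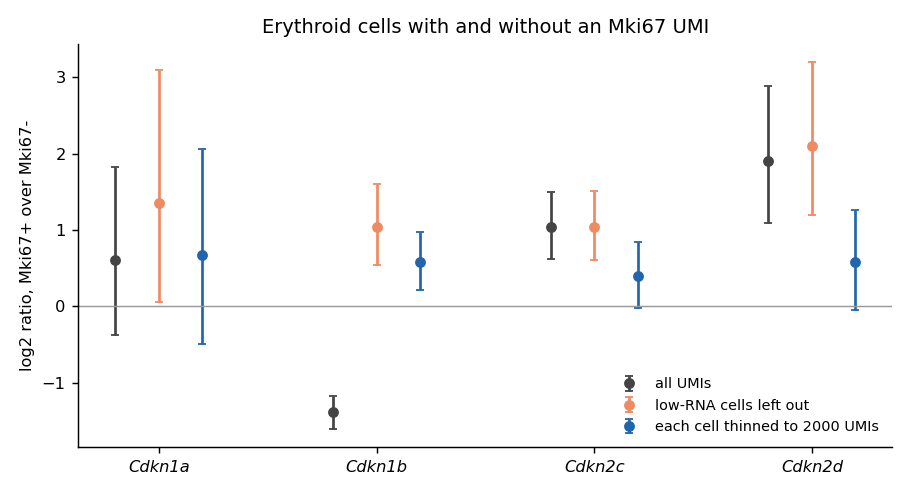
Log2 ratio of CPM in erythroid cells with an Mki67 UMI over those without (y axis) for 4 members, with 95% counting intervals, from all UMIs (grey), without the low-RNA globin-rich cells (orange) and with each cell thinned to 2000 UMIs (blue). Cdkn1b lies at −1.39 from all UMIs, 1.05 without the low-RNA cells and 0.58 after thinning.

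In LEPR stromal cells, 412 with and 1465 without Mki67 and of like depth (median 5766.5 and 5064 UMIs), Cdkn1c was lower with Mki67 (127 against 164 CPM; −0.36, −0.61 to −0.12), which after thinning was −0.50 (−1.13 to 0.07). Cdkn1a (0.11, −0.40 to 0.61), Cdkn1b (−0.02, −0.34 to 0.29), Cdkn2c (0.46, −0.23 to 1.13) and Cdkn2d (0.25, −0.32 to 0.79) did not separate. The cycle genes Ccne2 (29.2 against 6.17 CPM) and E2f8 (30.7 against 6.80 CPM) were higher with Mki67, as was Ubac1 (79.8 against 33.2 CPM). All 3 were more abundant in erythroid cells (108, 137 and 397 CPM), the erythroid marker list had a median of 591 CPM with and 461 CPM without Mki67, and stromal Mki67 stood at 15.2% of its erythroid level. The part of erythroid RNA in the division of stromal cells by Mki67 was not tested. Mki67 was found in 25.6% of stromal cells with Cdkn1a (19.1 to 33.1) and in 21.6% of those without (19.7 to 23.6), and these intervals overlapped. Its level was 452 against 152 CPM, with 84.4% of the UMIs in the former held by 5 cells.

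The genes whose levels ran most like each member over the 11 classes and stages were found by Pearson's r of log2(CPM + 1), as a description of points that share 1 sample. For Cdkn1a these included Tgfbr1 (r = 0.932) and Irf2bpl (0.929), for Cdkn1b Rb1cc1, Aff1 and Hbp1 (0.980 to 0.982), and for Cdkn1c Rora (0.993), Eps8 (0.991) and Emp1. The nearest to Cdkn2b was Clec3b (0.931), to Cdkn2c 1700034P13Rik (0.988), Hagh and Gm14198 (both 0.972), and to Cdkn2d 1810058I24Rik (0.917), Mtmr14 (0.900) and Aftph (0.884). Each named gene was highest in the same class as its member, which a choice by r favours. Clec3b is also a marker of the fibroblast list. Cdkn2a, with under 100 UMIs, was left out.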

How the data were processed

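The deposited values were raw UMI counts per gene and barcode, 1 matrix per lane, for 32285 genes; the authors made them with Cell Ranger (matrix header 3.0.2, a later version in the study's methods), and the submitters' notes name build mm10, R 4.0.3 and Seurat 4.0. The 2 libraries, labelled as replicates, shared nearly all barcodes, and the squared difference between them over the summed counts was 0.559, so counts were summed as 1 sample and intervals of levels and ratios computed on the mean of the lanes. Barcodes under 200 genes (339) or over 20% mitochondrial UMIs (1482) were left out, with overlap. Cells with a Lepr UMI and 5000 CPM of Cxcl12 formed the LEPR class. Other cells became fibroblast-like, endothelial-like or megakaryocyte-like where that list had the highest sum, at 3000 CPM or more. Those left became plasma cell-like from 10000 CPM, and then erythroid from 1000 CPM where that list had the highest sum. Each of these classes needed at least 3 markers detected.

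Cells could be compared only within 1 sample, so no test was run. A gene entered a comparison with at least 50 UMIs over both groups on the mean of the lanes and was counted as higher or lower from 2-fold. For a count of 0 the limit is 3 counts. To compare shares across depths, cells were thinned to 2000 UMIs, leaving out shallower cells. Scrublet called 186 doublets (1.94%; 29 LEPR stromal), which were kept. Named genes were the 7 members, Mki67, class markers, 7 pathway lists (78 of 80 genes measured) and, for members with at least 100 UMIs, the 3 most alike genes among those with at least 500 UMIs (1 is not reported here). Members, lists and gates were chosen with earlier results of these data known; the 5000-UMI limit and the sets of cells rich in 1 member were set after the values were seen. Statistics were checked on simulated data. Python 3.11.15, numpy 2.4.6, scipy 1.17.1, pandas 2.3.3, scanpy 1.11.5 and matplotlib 3.10.9 were used.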

Additional observations from a re-analysis of the deposited data

Results flagged for a closer look

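The 1482 barcodes with over 20% mitochondrial UMIs (median 2441 UMIs) entered no comparison above, and 5 members had levels there above the 1.14 CPM that a count of 0 allows. Cdkn1b stood at 40.6 CPM (33.3 to 49.1; 213 UMIs), Cdkn2c at 23.7 CPM (18.1 to 30.3; 124 UMIs), Cdkn2d at 9.92 CPM (6.48 to 14.5; 52 UMIs), Cdkn1a at 4.39 CPM (2.23 to 7.75; 23 UMIs) and Cdkn1c at 4.20 CPM (2.09 to 7.51; 22 UMIs). Cdkn2b had 1 UMI in them and Cdkn2a none. Of these barcodes, 19 met the LEPR gate and held 9 of the 22 Cdkn1c UMIs.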

How the results depend on the processing

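Of the alternatives to single values, 330 of 348 levels and 204 of 234 log2 ratios moved by no more than their counting interval. The comparison by Mki67 depended on the processing. It had 3 members at least 2-fold apart, which was 0 when cells were thinned to 2000 UMIs and 2 to 3 with 1 lane left out, and Cdkn1b turned from −1.39 to 0.58 (thinned) and 1.05 (low-RNA cells left out), with −0.42 for cells with at least 500 genes. Cdkn2d turned from 1.91 to −0.17 when all kept cells were divided by Mki67. Member and class pairs with a UMI in at least 10% of cells numbered 33, against 15 after thinning to 2000 UMIs and 6 after thinning lane 1 to 1000 UMIs, and cells with UMIs of at least 2 members went from 41.2% to 3.44%. Thinning leaves fewer UMIs by construction. For the remaining shifts the cause was not tested. With each lane left out, the count of members at least 2-fold apart stayed at 3 for LEPR stromal over erythroid, 3 for globin-rich over globin-poor, 3 for megakaryocyte-like over erythroid, 2 for fibroblast-like over LEPR stromal and 2 for low-RNA over other globin-rich cells, and the p53-list genes higher in the erythroid cells rich in Cdkn1a numbered 8 to 9. That number was 7 against cells without Cdkn1a no shallower than the shallowest of these, 7 with a minimum of 5 Cdkn1a UMIs (91 cells), 8 without doublets and 6 without the 5 cells with the most UMIs of the list. CPM averaged over cells moved 27 of 87 values. With doublets removed, Cdkn1c in LEPR stromal over erythroid cells stood at 7.15 in place of 6.71. Alternatives on the low-RNA cells, the fibroblast-like and megakaryocyte-like comparisons, the cells with the most UMIs, cells with 2 members and the cells rich in Cdkn1a were chosen after seeing the data. No paired analysis was possible because the results come from no test, with 1 sample in 1 group. Intervals cover counting error and say nothing of the spread between mice, and Cdkn2a and Cdkn2b were too rare at this depth to order the classes.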

Other observations

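Of the 531 Cdkn1c UMIs in the 506 unclassified cells, 386 came from 1 cell (181 and 205 in the lanes), chosen after its values were seen. The next cell of that class had 7, and 62 had a UMI. The cell held 32628 UMIs of 3882 genes, and Cdkn1c ranked 4 among them, at 11830 CPM. It was the 1 cell in which Myog, the transcription factor of muscle differentiation, was found (113 UMIs), and the 1 with Mymk (25 UMIs), which encodes the fusion protein myomaker. The contractile genes Acta1 (74 UMIs), Actc1 (69), Tnnt2 (36) and Ttn (35) were present too. Cdkn1a had 18 UMIs, Cdkn1b 1, Mki67 1, and Cdkn2c and Cdkn2d none.

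The cells with the most of 1 member were also chosen after the values were seen. The 10 LEPR stromal cells with the most Cdkn1a had the immediate-early gene Fos at 3147 CPM against 448 CPM in the rest, with a UMI in 7 of 10, and the stress gene Atf3 at 61.5 against 6.47 CPM, in 2 of 10. In the 10 fibroblast-like cells with the most Cdkn1a, Fos stood at 1730 against 2443 CPM, Atf3 at 1209 against 390 CPM, and Mki67 at 274 against 66.8 CPM, in 2 of 10 cells. The 10 fibroblast-like cells with the most Cdkn1c had Cdkn1a at 65.5 against 502 CPM and Mki67 at 8.19 against 119 CPM, with an Mki67 UMI in 1 of 10 and 19 of 93 cells. In the 10 LEPR stromal cells with the most Cdkn1c, Cdkn1a stood at 170 against 30.6 CPM, with a UMI in 3 of 10, and Mki67 at 26.2 against 185 CPM, with an Mki67 UMI in 1 of 10 and 411 of the other cells. Whether the classes differ in these ratios was not tested.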
